A study of Homo sapiens with 4 samples.

Results

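Epithelial cells hold together through tight junctions and desmosomes and carry a cytoskeleton of keratins. The genes described here are 38 that encode keratins, claudins and other tight junction proteins, desmosomal proteins and epithelial surface proteins, chosen by symbol from the 23228 gene rows of the deposited count tables. They were measured by RNA sequencing in Daoy cells, an established human medulloblastoma line, that stably expressed an shRNA against PELP1 (2 libraries) or a control shRNA (2 libraries). Both shRNAs came from lentiviral vectors, so the controls carry an integrated vector too. PELP1 binds nuclear receptors and chromatin modifiers and also takes part in ribosome maturation in the nucleolus. PELP1 shRNA cells were set against control shRNA cells, in a series whose title concerns the NF-κB pathway in medulloblastoma. How many shRNA sequences or clones were used is not stated.

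As background, keratins assemble as pairs of a type I and a type II chain, and KRT8 with KRT18 is the pair of simple epithelia. Claudins are the membrane proteins that form the strands of tight junctions and set which ions cross them, while occludin and the tricellulin and angulin proteins occupy contacts of cell pairs and cell corners. Desmosomes join desmogleins and desmocollins through plakoglobin and plakophilins to desmoplakin, which anchors keratin. Low levels of most of these genes are a textbook feature of mesenchymal and neural cells.

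The libraries held 29221640 and 26760085 counts in genes with the PELP1 shRNA and 24052542 and 26629578 with the control shRNA. PELP1 stood at 55.6 and 49.7 CPM (counts relative to library size, with TMM scaling factors) in the PELP1 shRNA libraries, against 168 and 185 CPM in the control libraries, which is 29.8% of the control level. Of the medulloblastoma and neural progenitor markers looked up, ZIC1, ZIC2, PAX6, SOX2 and OTX2 were detected in every library, whereas ATOH1, NEUROD1 and BARHL1 had no more than 6 counts in any. Glial markers differed by replicate number, and 4 of the 7 tested were called higher, beside 28.6% of all genes tested. GFAP had 840 and 286 counts in PELP1 shRNA replicates 1 and 2, against 869 and 304 in control replicates 1 and 2. The part of this replicate difference in the results below was not tested as such, but with the replicate number as a block 20 of the 35 tested members were called higher and 7 lower, beside 26.8% and 27.7% of all genes. In such bulk RNA, fewer cells expressing a gene and less RNA per cell cannot be told apart. In fits of all 4 libraries that estimate variation, p-values measure the spread between 2 libraries a group. The design text says these were run in duplicate, and they may be technical. P-values at an assumed biological variation of 10% or 20% rest on that set value and not on this spread. With 1 library left out, the spread comes from the other group alone.

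The tested members were mostly higher with the PELP1 shRNA, and their larger changes were all in that direction. The members were chosen with earlier results of these data known. Other junction genes, described further below, did not all share this direction. The edgeR quasi-likelihood test with Benjamini-Hochberg adjustment (false discovery rate, FDR, threshold 0.05) was fitted over all genes. It could be run on 35 members, since DSC3, EVPL and CRB3 had too few counts. It called 20 members higher and 9 lower, and 6 were not called. Among all 14972 genes tested, 58.1% were called, 28.6% higher and 29.5% lower. Of the 35, CLDN7, MARVELD3, TJP3 and EPCAM passed the low-count filter only through the PELP1 shRNA libraries, so they could only appear higher. Over the 31 members that passed it in both groups, 18 were called higher (58.1%) and 9 lower (29%), with a median log2 fold change of 0.52, against 0.0022 over all genes tested. With library size alone as scaling, which shifts the median of all genes by 0.09, the 35 members gave 22 higher and 5 lower, beside 37.9% and 22.1% of all genes.

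With that many genes called, a stricter test asked for changes beyond 1.5-fold (glmTreat in edgeR). Of all genes, 9.63% passed, 4.74% higher and 4.9% lower. Among the 35 members 13 passed higher and 0 lower. Of the 31 that passed the low-count filter in both groups, 11 passed higher (35.5%). At an unadjusted p of 0.05 in the same test 1 member was lower, and the stricter test gave 9 members higher and 0 lower in DESeq2, where 3.95% of all genes passed, and 12 higher and 0 lower in limma-voom, where 7.71% did. The 13 were KRT7, KRT8, KRT80, KRT86, CLDN1, CLDN11, F11R, MARVELD2, LSR, TJP3, PKP2, EPCAM and PODXL. The members called lower had log2 fold changes between −0.65 and −0.10.

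**Figure D1:**
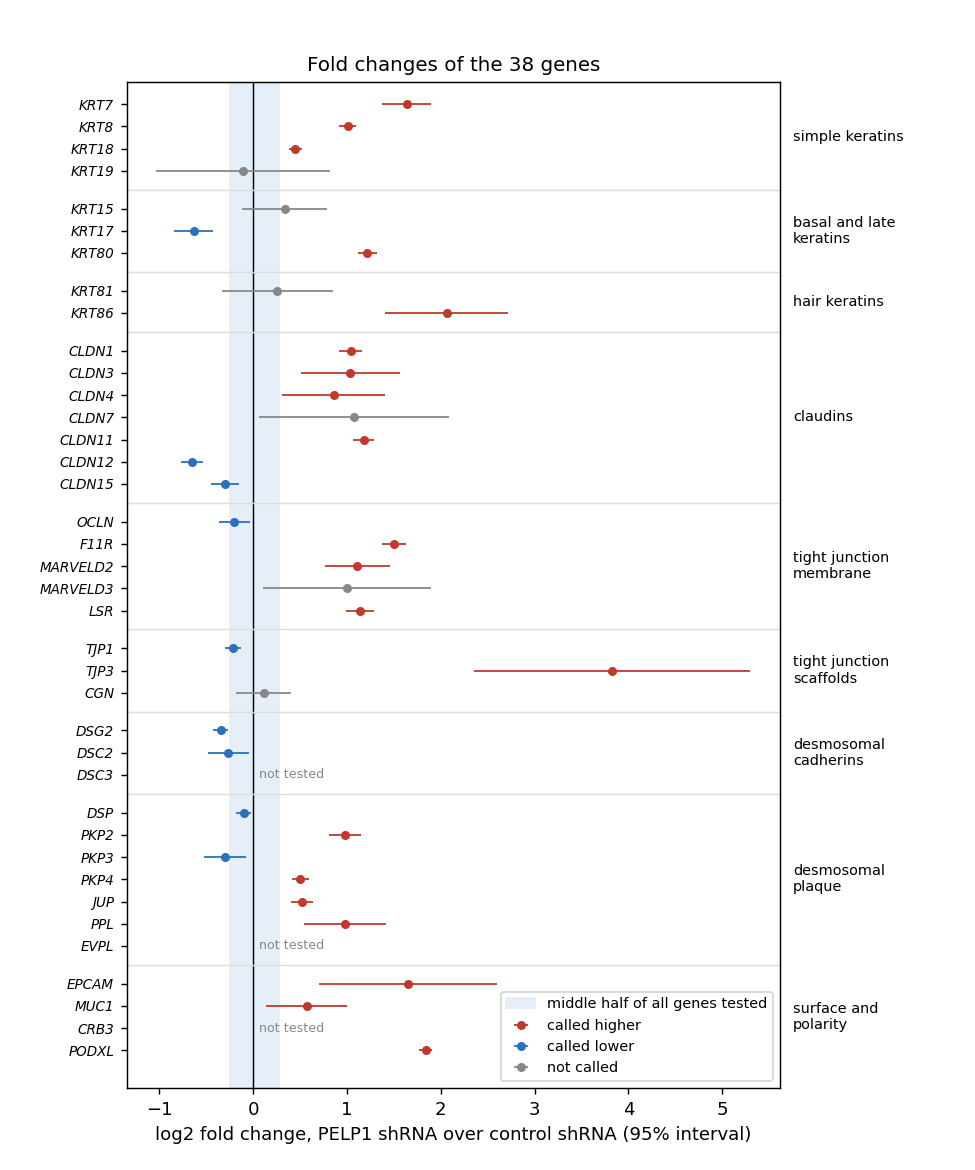
Log2 fold change of each gene, PELP1 shRNA over control shRNA, with its 95% interval (x axis), by gene and role (y axis); the shaded band runs from the lower to the upper quartile of all genes tested. Red points are called higher, blue lower and grey not called, and every blue point lies between −0.65 and −0.10.

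The member with the lowest FDR was PODXL, podocalyxin, a sialylated mucin of the apical surface of kidney podocytes and of many epithelial tumours. It stood at 838 and 838 CPM with the PELP1 shRNA, against 232 and 236 CPM with the control shRNA. Replicates differed far less than the groups, and the level rose 3.59-fold (log2 fold change 1.84 ± 0.04, SE, FDR = 4.16e-49). The gene is at 131185021 to 131242976 of hg19 chromosome 7, read from the minus strand, and only 0.375% of its 50-base exon windows recur elsewhere in the genome. The other surface genes were at much lower levels. MUC1, the transmembrane mucin of glandular epithelia, had 2.62 and 2.65 CPM with the PELP1 shRNA and 1.84 and 1.71 CPM with the control shRNA (FDR = 0.0212). That call was lost with each single library left out (adjusted p from 0.0537 to 0.113) and with DESeq2 (0.219). EPCAM, the epithelial adhesion molecule used to define carcinoma cells, had 21 and 24 counts with the PELP1 shRNA and 9 and 3 with the control shRNA, which is 3.19 times as many after scaling (95% counting interval 1.66 to 6.62). The fit gave a log2 fold change of 1.65 (FDR = 0.00222), but 1.01 when control replicate 2 was left out (adjusted p = 0.142), 2.69 when control replicate 1 was, and an adjusted p of 0.0961 with DESeq2. CRB3, a small apical polarity protein, was too low to test, at 16 and 10 counts against 4 and 5 (ratio 2.46, 95% counting interval 1.12 to 5.96). Counting intervals cover counting error only.

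**Figure D2:**
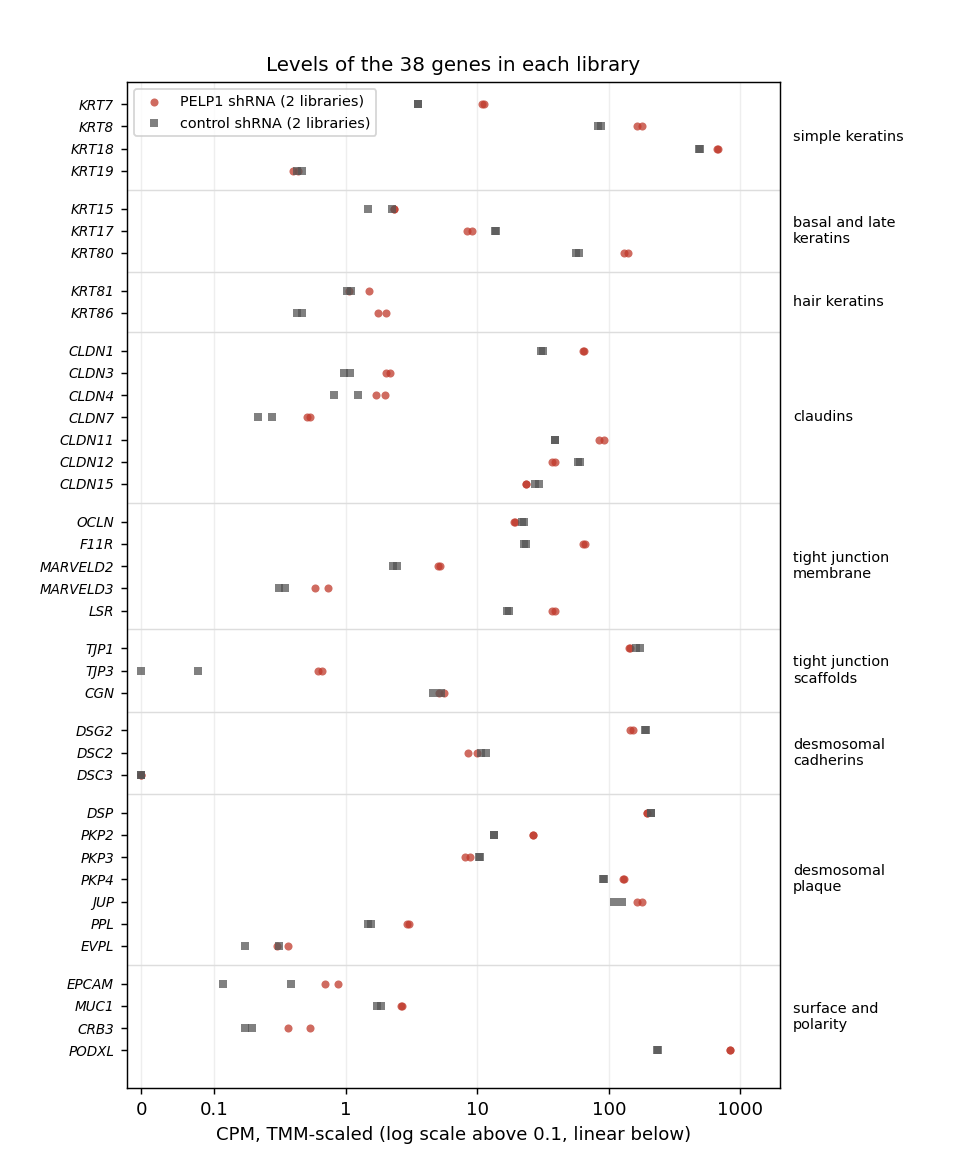
Level of each of the 38 genes in each library in TMM-scaled CPM (x axis, logarithmic above 0.1 and linear below), by gene and role (y axis). Red circles are the 2 PELP1 shRNA libraries and grey squares the 2 control shRNA libraries; PODXL, F11R, CLDN1 and CLDN11 show the groups well apart, while KRT19, KRT81 and CGN overlap.

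Of the 4 simple-epithelial keratins, 3 rose, beside 28.6% of all genes tested. KRT18, the type I partner of KRT8, had the highest level per kilobase of the keratin members in both groups and stood at 673 and 664 CPM with the PELP1 shRNA and 483 and 495 CPM with the control shRNA. Its rise was modest, 1.37-fold (log2 fold change 0.45 ± 0.03, SE, FDR = 4.85e-18). KRT8, the type II partner, doubled to 177 and 165 CPM with the PELP1 shRNA, against 83.2 and 86.4 CPM with the control shRNA (2.02-fold, FDR = 4.58e-29). The pair therefore changed unequally. In raw counts KRT8 stood at 0.264 and 0.248 of KRT18 in the PELP1 shRNA libraries, against 0.172 and 0.174 in the control libraries, and this ratio does not depend on scaling. KRT7, a type II keratin of glandular and transitional epithelia, rose 3.11-fold to 11.1 and 10.9 CPM, against 3.55 and 3.54 CPM with the control shRNA (FDR = 4.85e-17). KRT19, the smallest keratin, had 12 and 12 counts with the PELP1 shRNA and 10 and 12 with the control shRNA. Its groups overlapped, and the 95% interval of its log2 fold change ran from −1.03 to 0.82.

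The remaining keratins did not move as a block. KRT80, a type II keratin of differentiating epithelia, rose 2.32-fold to 139 and 130 CPM, against 56.6 and 59.2 CPM with the control shRNA (FDR = 1.93e-31). KRT17, a type I keratin of basal and injured epithelium, went the other way, at 9.15 and 8.38 CPM with the PELP1 shRNA and 13.8 and 13.5 CPM with the control shRNA (64.4% of control, FDR = 4.15e-07). KRT15, a keratin of basal stem cells, was not called (2.32 and 2.32 CPM against 2.23 and 1.48 CPM, FDR = 0.204). The neighbouring hair keratins differed from each other. KRT86 had 61 and 48 counts with the PELP1 shRNA and 10 and 12 with the control shRNA (ratio 4.21, 95% counting interval 2.65 to 7, FDR = 1.84e-07), whereas KRT81 had 32 and 41 against 24 and 28 (FDR = 0.473).

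Keratin counts are partial, because reads that align to more than 1 place were not counted. Of the 50-base windows of their exons, 12.9% in KRT8, 13% in KRT18, 14.7% in KRT17, 42.7% in KRT81 and 34.3% in KRT86 occur elsewhere in hg19. KRT8 (chromosome 12, 53290971 to 53343738, minus strand) and KRT18 (chromosome 12, 53342655 to 53346690, plus strand) also share 525 exonic bases on opposite strands in the GENCODE annotation, and the strand setting of the counting is not given. Per kilobase of merged exons, KRT18 made up 98.4% and 98.5% of the summed level of the 4 type I members in the PELP1 shRNA libraries and 96.8% and 97% in the control libraries. The summed type II level was 0.277 and 0.264 of the summed type I level with the PELP1 shRNA, against 0.164 and 0.167 with the control shRNA. With the length of the canonical transcript in place of merged exons, a choice made after the data were seen, these ratios were 0.297 and 0.281 against 0.182 and 0.185. The order of KRT8 and KRT80 per length depends on that choice, so none is given.

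Among claudins, 4 of 7 rose (57.1%) and 2 fell (28.6%), beside 28.6% of all genes tested called higher and 29.5% called lower. CLDN11, known from myelin and Sertoli cell junctions, stood at 91 and 84.7 CPM with the PELP1 shRNA and 38.7 and 38.9 CPM with the control shRNA, a 2.27-fold rise (log2 fold change 1.18 ± 0.06, SE, FDR = 7.02e-28). CLDN1, the barrier claudin of skin, rose 2.06-fold to 63.4 and 64.8 CPM, against 31.8 and 30.6 CPM with the control shRNA (FDR = 2.05e-23). Both are on chromosome 3 (CLDN11 at 170136656 to 170172521 on the plus strand, CLDN1 at 190023496 to 190040235 on the minus strand), and CLDN11 shares 683 exonic bases with another annotated gene on its strand. CLDN12, which has been linked to calcium permeability, fell to 36.7 and 38.8 CPM with the PELP1 shRNA, against 59.8 and 58.7 CPM with the control shRNA (63.6% of control, FDR = 6.47e-15). Its exons overlap those of neighbouring genes on its strand over 1178 bases. CLDN15, a pore-forming claudin of the intestine, also fell, to 81.2% of control (23.3 and 23.3 CPM against 27.6 and 29.6 CPM, FDR = 0.000527), a call lost at an assumed biological variation of 10% (adjusted p = 0.135).

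CLDN3, CLDN4 and CLDN7, the claudins typical of glandular epithelium, were all near or under 2 CPM. CLDN3 had 65 and 56 counts with the PELP1 shRNA and 25 and 25 with the control shRNA (2.05-fold, FDR = 0.000607). CLDN4 had 60 and 47 counts against 29 and 21 (1.81-fold, FDR = 0.00634). It missed the threshold when control replicate 2 was left out (log2 fold change 0.58, adjusted p = 0.151), when PELP1 shRNA replicate 1 was (0.0731), and in DESeq2 (0.14). CLDN7 had 16 and 14 counts against 5 and 7 and was not called (FDR = 0.0637). In control cells CLDN1, CLDN11, CLDN12 and CLDN15 lay between 8.59 and 9.89 CPM per kilobase of merged exons. With the PELP1 shRNA they ran from 20.3 for CLDN11 and 17.7 for CLDN1 to 8.04 for CLDN15 and 5.62 for CLDN12. With canonical transcript lengths the control values spread from 9.04 for CLDN1 to 23.4 for CLDN15, so the even control levels rest on the length used. Counts of CLDN11 were 2.48 and 2.19 times those of CLDN12 in the PELP1 shRNA libraries, against 0.647 and 0.663 times in the control libraries.

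Of the other 5 tight junction membrane genes, 3 were called higher, each by more than 2-fold, beside 28.6% of all genes tested called higher. F11R, which encodes the junctional adhesion molecule JAM-A, rose most, to 64.1 and 65.7 CPM with the PELP1 shRNA, against 22.6 and 23.3 CPM with the control shRNA (2.83-fold, 95% interval of the log2 fold change 1.37 to 1.63, FDR = 2.94e-30). It lies on chromosome 1 (160965001 to 160991133, minus strand) and shares 1853 exonic bases with an overlapping annotated gene on the same strand. LSR, angulin-1, marks the points where 3 cells meet and recruits tricellulin there. It stood at 36.8 and 38.7 CPM with the PELP1 shRNA and 16.7 and 17.5 CPM with the control shRNA (2.2-fold, FDR = 1.03e-20). MARVELD2, the tricellulin gene, also rose, with 5.2 and 5.01 CPM against 2.44 and 2.29 CPM (2.16-fold, FDR = 1.15e-07).

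OCLN, the occludin gene, did not follow them. It stood at 19.1 and 19.5 CPM with the PELP1 shRNA and 21.8 and 22.5 CPM with the control shRNA (87.1% of control, FDR = 0.0316). The groups did not overlap, but the adjusted p was 0.118 under upper-quartile scaling, 0.251 under library size alone, 0.188 in DESeq2 and 0.053 under the replicate block. It was 0.0757 to 0.149 when PELP1 shRNA replicate 1, PELP1 shRNA replicate 2 or control replicate 2 was left out. Of the 50-base windows of OCLN exons, 59% occur elsewhere in the genome, so its counts come from the remainder of the transcript. Counts of LSR were 1.92 and 1.99 times those of OCLN in the PELP1 shRNA libraries, against 0.768 and 0.779 times in the control libraries. MARVELD3, the third member of the occludin family, had 22 and 16 counts against 8 and 8 and was not called (FDR = 0.0504).

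**Figure D3:**
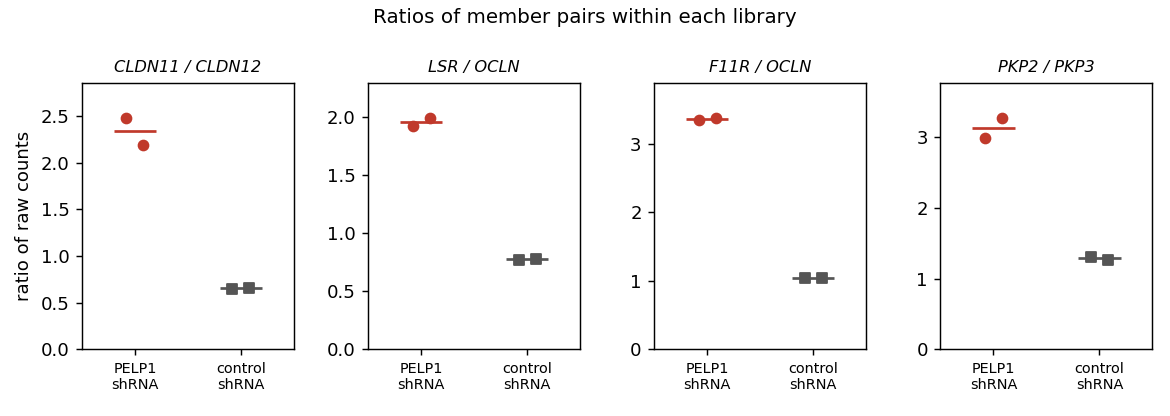
Ratio of the raw counts of 2 genes within each library (y axis), for 4 pairs, in PELP1 shRNA and control shRNA libraries (x axis); points are libraries and lines their means. All ratios are higher in both PELP1 shRNA libraries, for example 3.35 and 3.38 against 1.04 and 1.04 for F11R over OCLN.

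Of the scaffold proteins under the membrane, TJP1 (ZO-1) fell and TJP3 (ZO-3) rose. TJP1 had 141 and 146 CPM with the PELP1 shRNA and 173 and 161 CPM with the control shRNA (86% of control, FDR = 1.27e-05), a call lost at an assumed biological variation of 10% (adjusted p = 0.271). TJP3, a scaffold found mainly in epithelia, had 20 and 17 counts against 0 and 2, a ratio of 15.7 (95% counting interval 4.06 to 135). With so few control counts its fitted log2 fold change of 3.83 (FDR = 8.56e-06) became 7.12 without control replicate 2 and 2.97 without control replicate 1. CGN, cingulin, which links ZO proteins to actomyosin, was not called (5.57 and 5.08 CPM against 5.26 and 4.63 CPM, FDR = 0.527). Its 95% interval, −0.18 to 0.40 on the log2 scale, lay below the estimate of LSR, but it covers only the spread between 2 libraries a group.

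Member promoters were examined for 2 sequence motifs. CACCTG is the E-box bound by ZEB1, SNAI1 and SNAI2, and GGAAG is a core shared by many ETS factors, ELF3 and EHF among them; both were searched on both strands. RefSeq promoters (GRCh38.p14 table, 250 bases before to 50 after the start site, each located on GRCh37 by an exact match) were found for 22 members, 33 sequences in all. They cover 11 of the 20 members called higher and 7 of the 9 called lower. KRT7, KRT80, KRT86, F11R, PKP2, EPCAM and PODXL, all higher by the stricter test, had none. The 4 shown are those of the tricellular pair that rose, LSR and MARVELD2, of CLDN12, which fell, and of CRB3, which was not tested for change and has the E-box repeated. Capitals mark both motifs, and no E-box overlaps an ETS core in them.
LSR (chr19:35739655-35739954, plus strand): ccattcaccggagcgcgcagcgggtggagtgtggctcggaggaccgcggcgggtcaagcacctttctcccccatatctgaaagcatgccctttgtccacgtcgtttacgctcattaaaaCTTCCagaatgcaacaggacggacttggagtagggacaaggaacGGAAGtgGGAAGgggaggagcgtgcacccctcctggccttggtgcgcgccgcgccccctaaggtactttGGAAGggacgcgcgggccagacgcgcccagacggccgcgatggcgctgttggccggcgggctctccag
MARVELD2 (chr5:68710693-68710992, plus strand): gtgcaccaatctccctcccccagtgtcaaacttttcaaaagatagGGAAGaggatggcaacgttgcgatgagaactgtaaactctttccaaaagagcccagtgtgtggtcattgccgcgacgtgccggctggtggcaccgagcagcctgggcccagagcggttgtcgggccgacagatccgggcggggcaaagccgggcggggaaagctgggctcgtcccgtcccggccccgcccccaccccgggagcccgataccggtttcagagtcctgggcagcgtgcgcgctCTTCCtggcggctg
CLDN12 (chr7:90032525-90032824, plus strand): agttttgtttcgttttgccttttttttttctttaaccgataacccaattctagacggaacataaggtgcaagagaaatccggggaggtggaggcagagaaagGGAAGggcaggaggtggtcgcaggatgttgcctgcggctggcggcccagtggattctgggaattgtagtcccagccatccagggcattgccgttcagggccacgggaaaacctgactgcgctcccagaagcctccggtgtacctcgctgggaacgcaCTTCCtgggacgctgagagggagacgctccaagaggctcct
CRB3 (chr19:6464032-6464331, plus strand): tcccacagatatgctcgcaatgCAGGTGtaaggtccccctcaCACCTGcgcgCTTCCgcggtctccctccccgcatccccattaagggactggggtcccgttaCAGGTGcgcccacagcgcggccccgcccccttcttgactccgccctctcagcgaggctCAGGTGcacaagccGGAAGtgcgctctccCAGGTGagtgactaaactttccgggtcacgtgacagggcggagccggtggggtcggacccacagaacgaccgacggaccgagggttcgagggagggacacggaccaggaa
The LSR promoter held 4 ETS cores and no E-box, and those of MARVELD2 and CLDN12 2 ETS cores each and no E-box. That of CRB3 held 5 E-boxes and 2 ETS cores, as did a promoter of CLDN7, which is not shown. Unlike CLDN12, 5 of the 7 members called lower that have a promoter had an E-box. The E-box was present in 5 of 16 promoters of members called higher (31.2%) and in 6 of 12 of members called lower (50%), against 20.6% of all 35116 promoters in the table. The ETS core was in 13 of 16 (81.2%) and 11 of 12 (91.7%), against 71.9% of all promoters. Several genes contribute more than 1 start site, so these promoters are not independent, and a match is a description of the letters only.

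Of the desmosomal cadherins DSG2 and DSC2 fell, while the plaque genes split. DSG2, desmoglein-2, the desmoglein of simple epithelia and heart, had 145 and 153 CPM with the PELP1 shRNA and 191 and 187 CPM with the control shRNA (78.6% of control, FDR = 6.73e-11; adjusted p = 0.058 at an assumed biological variation of 10%). DSC2, its desmocollin partner, stood at 83.4% of control (8.55 and 9.98 CPM against 11.6 and 10.6 CPM, FDR = 0.0362). The adjusted p was 0.228 when control replicate 1 was left out, 0.349 when PELP1 shRNA replicate 1 was, 0.0952 under upper-quartile scaling, 0.171 under library size alone and 0.247 in DESeq2. DSC3, the desmocollin of stratified epithelium, had 0 counts in all 4 libraries, which allows up to 3 counts in each. DSP, desmoplakin, had 195.5 and 194.4 CPM against 209.6 and 208.5 CPM (93.3% of control, FDR = 0.024). Its call was lost when any single library was left out (adjusted p from 0.0531 to 0.115), with library size alone (0.837) and with DESeq2 (0.0645).

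The armadillo proteins of the plaque moved in both directions. PKP2, plakophilin-2, the plakophilin of simple epithelia and heart, doubled to 26.4 and 26.3 CPM with the PELP1 shRNA, against 13.4 and 13.3 CPM with the control shRNA (1.97-fold, log2 fold change 0.98 ± 0.09, SE, FDR = 8.9e-16). PKP4, plakophilin-4, which also binds classical cadherins, rose 1.42-fold to 129 and 131 CPM, against 92.1 and 90.9 CPM (FDR = 3.35e-15). JUP, plakoglobin, shared by desmosomes and adherens junctions, rose 1.44-fold to 177 and 162 CPM, against 110 and 127 CPM (FDR = 1.37e-08). PKP3, plakophilin-3, stood at 81.4% of control (8.82 and 8.06 CPM against 10.2 and 10.5 CPM, FDR = 0.0187), but the adjusted p was 0.0537 under upper-quartile scaling, 0.103 under library size alone, 0.181 in DESeq2, 0.0979 when control replicate 2 was left out and 0.128 when PELP1 shRNA replicate 2 was. Counts of PKP2 were 2.99 and 3.27 times those of PKP3 in the PELP1 shRNA libraries, against 1.31 and 1.27 times in the control libraries. PPL, periplakin, a plakin of the cornified envelope, rose 1.97-fold to 3.02 and 2.94 CPM, against 1.54 and 1.48 CPM (FDR = 0.000104), and its partner EVPL, envoplakin, had 9 and 10 counts against 4 and 8 and was not tested.

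**Figure D4:**
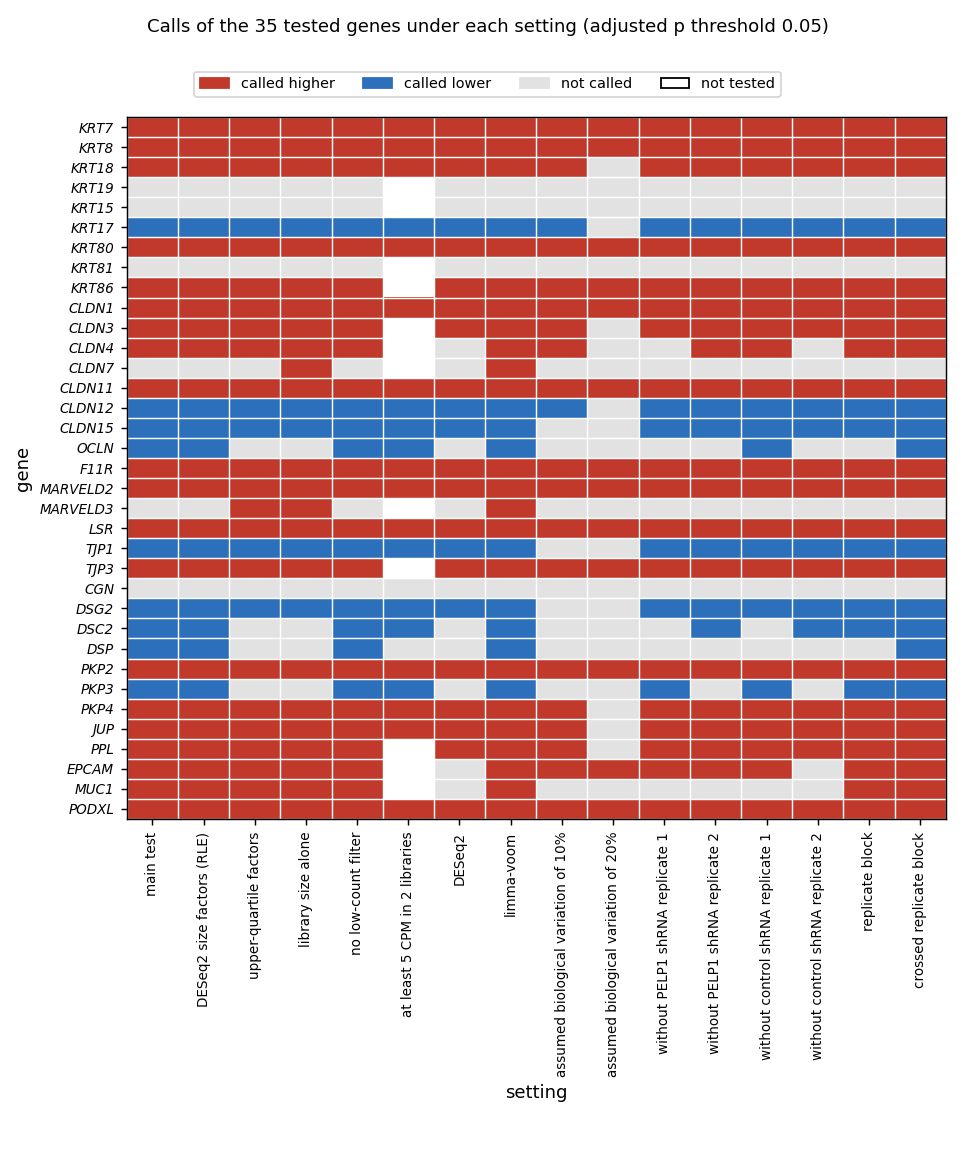
Call of each of the 35 tested genes (y axis) at an adjusted p of 0.05 in the main test and under each other setting (x axis); red is called higher, blue lower, grey not called and white not tested. The 12 genes red wherever tested are KRT7, KRT8, KRT80, KRT86, CLDN1, CLDN11, F11R, MARVELD2, LSR, TJP3, PKP2 and PODXL. No gene is blue in every column. Of the 12, TJP3 passed the main low-count filter only through the PELP1 shRNA libraries.

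Genes around this set were looked up in lists of the same tissue biology, each described by its counts. The shares to set beside those counts were 28.6% of all genes tested called higher and 29.5% called lower. Some of their genes passed the low-count filter in only 1 group, EPPK1 among them, and these could be called in that direction only. The founding member of the epithelial adherens junction was at the limit of detection. CDH1, E-cadherin, had 0 and 0 counts with the PELP1 shRNA and 3 and 2 with the control shRNA. Of 12 adherens junction genes, 9 were tested, and 2 were called higher and 3 lower, with a median of −0.098 on the log2 scale. CTNNB1, β-catenin, stood at 355 and 350 CPM against 355 and 344 CPM (FDR = 0.788). Of 26 other keratins, 22 had no more than 10 counts in any library. KRT14, the basal type I keratin, had 0 and 0 counts with the PELP1 shRNA and 9 and 8 with the control shRNA (95% counting interval of the scaled ratio 0 to 0.206). Of these other keratins 4 were tested, and 2 were called higher and 0 lower. At an unadjusted p of 0.05 in edgeR 2 were lower, and DESeq2 gave 1 higher and 1 lower of 8 tested. KRT79 was among those called higher (log2 fold change 0.71, FDR = 0.00665).

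Of 23 other claudins and tight junction genes, 14 were tested, 4 higher and 3 lower, with a median of 0.068. Of all genes tested, 28.6% were higher and 29.5% lower, which applies to each list here. CXADR, the coxsackievirus and adenovirus receptor of tight junctions, rose, with 17.7 and 18.5 CPM against 10.4 and 8.9 CPM (FDR = 4.09e-12). Among 10 other desmosome and cornified envelope genes, 2 were higher and 2 lower of 6 tested. PLEC, plectin, which ties intermediate filaments to adhesion sites, fell to 384 and 362 CPM, against 801 and 846 CPM (log2 fold change −1.14 ± 0.04, SE, FDR = 3.42e-37). EPPK1, epiplakin, a keratin-binding plakin, rose to 47 and 53 counts with the PELP1 shRNA, against 11 and 6 with the control shRNA, having passed the filter only through the PELP1 shRNA libraries, and PERP, a desmosomal membrane protein, rose by 0.43 on the log2 scale. Of 14 polarity genes, 6 of 12 tested were higher and 2 lower (median 0.23), with LLGL2 at 1.05 and PARD6A at 1.00. Of 13 other epithelial surface genes, 1 of 8 tested was higher and 2 lower, and CDCP1 fell by 0.80.

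Epithelial regulators and mesenchymal genes differed in the direction of their calls. Of 12 epithelial regulators, 8 were tested, and 5 were called higher and 0 lower, beside 28.6% and 29.5% of all genes tested. At an unadjusted p of 0.05 in edgeR, and with DESeq2 and limma-voom, the count lower was also 0. ELF3, an epithelial ETS factor, stood at 5.87 and 6.1 CPM with the PELP1 shRNA and 1.2 and 1.05 CPM with the control shRNA (FDR = 1.06e-16). ESRP1, a splicing factor of epithelial cells, had 4.61 and 4.43 CPM against 1.33 and 1.09 CPM (FDR = 5.31e-12). EHF, another ETS factor, rose to 2.09 and 2.4 CPM against 0.556 and 0.428 CPM (FDR = 1.15e-08), and OVOL2, a repressor of ZEB1 in epithelium, to 2.98 and 3.12 CPM against 1.2 and 1.17 CPM (FDR = 7.4e-07). GRHL2, the grainyhead factor of simple epithelium, had 0 and 0 counts against 1 and 0. Of 14 mesenchymal genes, all tested, 9 were lower and 2 higher (median −0.52), beside 29.5% and 28.6% of all genes tested. ZEB1, a repressor of epithelial genes, stood at 35.2 and 35.9 CPM with the PELP1 shRNA and 62.6 and 60.2 CPM with the control shRNA (FDR = 2.81e-18), and SNAI2 fell by 0.89 on the log2 scale. VIM, vimentin, fell by 0.51 but remained at 3894 and 3893 CPM, against 5480 and 5616 CPM with the control shRNA. CDH2, N-cadherin, stood at 258 and 255 CPM against 422 and 417 CPM (FDR = 2.27e-26). FN1, fibronectin, was called higher, at 9955 and 10040 CPM against 6951 and 7063 CPM.

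**Figure D5:**
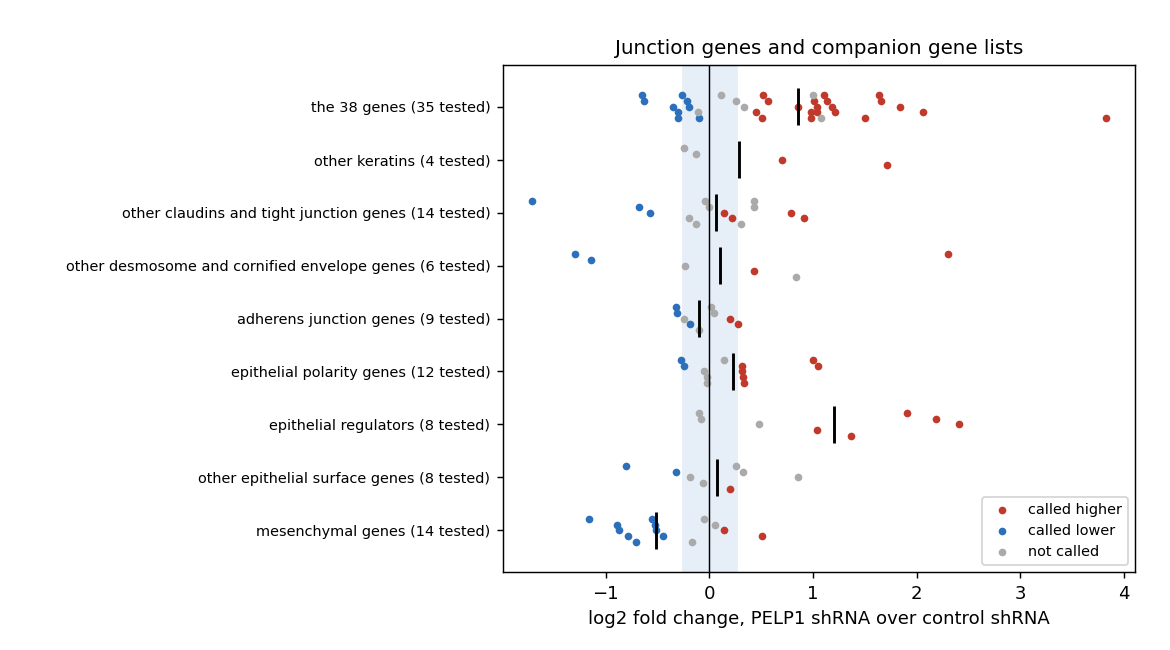
Log2 fold change, PELP1 shRNA over control shRNA (x axis), of each tested gene in the set of 38 and in 8 companion lists (y axis); bars are medians of the tested genes, and the shaded band runs from the lower to the upper quartile of all genes tested. The top row includes genes that passed the low-count filter only through the PELP1 shRNA libraries. The 14 mesenchymal genes centre on −0.52 and the 8 tested epithelial regulators lie mostly to the right of the band.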

How the data were processed

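RNA from Daoy cells was sequenced as 50 bp single-end reads, 1 library per sample. The submitters' processing notes name TopHat2 2.0.8b, HTSeq and hg19. The authors deposited 1 table of raw counts by gene symbol for each library. Which HTSeq version, strand setting and annotation they used is not given in the sources used here. Rows that name no gene were left out. They held 29.38% to 30.82% of each file total as alignments that were not unique, 8.831% to 9.076% as reads in no gene and 0.579% to 0.602% as ambiguous reads.

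Counts were tested in R 4.3.3 with edgeR 4.0.16 (quasi-likelihood, robust, TMM factors, filterByExpr, intercept and shRNA group, two-sided). Benjamini-Hochberg adjustment ran over all 14972 genes, with a threshold of 0.05. The same fit was tested against a 1.5-fold change with glmTreat. DESeq2 1.42.0, limma-voom (limma 3.58.1), other scalings and filters, assumed biological variations of 10% and 20%, single libraries left out and a replicate block were alternatives. The estimated biological coefficient of variation was 2.99%. The procedure was run on simulated counts drawn with the common dispersion estimated from these same libraries. That check could not address whether the replicates are technical, or the replicate difference of glial markers. Replicate pairs differed by more than counting noise (chi-square per degree of freedom 2.374 with the PELP1 shRNA and 2.469 with the control shRNA), and each was counted as 1 sample, whether or not the pairs are technical.

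Gene models, lengths and overlaps came from GENCODE v44 lifted to GRCh37. It may differ from the annotation used for counting. Windows of 50 bases of merged exons were matched exactly to both strands of GRCh37. Every member is accounted for. From each companion list up to 3 called genes of largest change (mean 1 CPM or more) and a few fixed genes could be named. KRT14 and FN1 were named after their values were seen, as were the cell type markers GFAP, ZIC1, ZIC2, SOX2, ATOH1, NEUROD1 and BARHL1. Members and lists were chosen with earlier results of these data known.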

Additional observations from a re-analysis of the deposited data

How the results depend on the processing

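No member that was called in the main test or in an alternative changed direction. Members called higher numbered 20 in the main test, 17 with DESeq2 and 22 with limma-voom, beside 28.6%, 18% and 28.3% of all genes. There were 13 with the filter of at least 5 CPM, where only 23 members could be tested and 32% of all genes were higher. At an assumed biological variation of 20% there were also 13, where 8.85% of all genes were called, 4.58% higher. The 9 members called lower depended more on the setting. They numbered 5 with upper-quartile factors, 5 with library size alone, 5 with DESeq2, 2 at an assumed variation of 10% and 0 at 20% (edgeR likelihood ratio test; 2 at an unadjusted p of 0.05). The share of all genes called lower fell too. It was 29.5% in the main test and 24.7%, 22.1%, 20.4%, 14.5% and 4.27% in these settings, in the same order. At 20%, 5 members passed the test against 1.5-fold, as did 3.75% of all genes. Without 1 library at a time, 17 to 19 members were higher, 6 to 7 lower and 11 to 13 changed by more than 1.5-fold. With the replicate block 20 were higher, 7 lower and 13 beyond 1.5-fold, beside 26.8%, 27.7% and 9.31% of all genes. Deviations of libraries with the same number correlated at 0.0109 over all genes tested and −0.128 over 11490 genes of at least 5 CPM. A crossed block, added after the data were seen, gave 20 higher and 9 lower, beside 30.5% and 31.5% of all genes. Of the calls, 12 higher and 0 lower held in every setting in which the gene was tested. The 12 include TJP3, which passed the main low-count filter only through the PELP1 shRNA libraries and so could only appear higher. At least 5 CPM left no value for 12 members.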

Other observations

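Some markers of other lineages also differed between the groups. SNAP25, a synaptic vesicle fusion protein, had 170 and 183 counts with the PELP1 shRNA and 34 and 24 with the control shRNA (log2 fold change 2.37, FDR = 3.44e-16). PECAM1, the endothelial and platelet adhesion molecule, had 57 and 49 counts against 11 and 7 (log2 fold change 2.31, FDR = 5.26e-08), and passed the low-count filter only through the PELP1 shRNA libraries. TUBB3, the neuronal β-tubulin, moved the other way, with a log2 fold change of −0.99 (FDR = 1.35e-25). Among all genes tested, 28.6% were called higher and 29.5% lower. Of the 10 neuronal markers, 8 were tested, 3 of them higher and 3 lower. Of 9 leukocyte and endothelial markers, 6 were tested, 2 of them higher, PECAM1 included, and 1 lower. The summed level of the glial list was 51.2 and 24.9 CPM in PELP1 shRNA replicates 1 and 2, against 50.8 and 22.1 CPM in control replicates 1 and 2.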
